A study of Mus musculus with 4 samples.

Results

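Neutrophils and monocytes are white cells that bone marrow releases into the blood, and the 119 cells described here carried their RNA in dissociated mouse cerebellum. They were chosen from 42576 cells by a rule on measured UMIs (unique molecular identifiers, each standing for 1 captured RNA molecule). A member had at least 1 UMI of Ptprc, which encodes the leukocyte antigen CD45, and a UMI of at least 2 of 5 genes of blood myeloid cells (S100a8, S100a9, Retnlg, Ly6c2 and Ccr2). It had no UMI of Cd3e, Cd3d, Cd79a, Nkg7, Tmem119, C1qa or Mrc1, which mark T cells, B cells, natural killer cells, microglia and other resident macrophages. Cells needed at least 500 detected genes and at most 20% mitochondrial UMIs. The rule used the same UMIs that are described below, so the levels of these genes in the members are a description of the choice and not a result. Whether a cell lay inside a vessel or in the tissue was not measured.

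There were 4 libraries, with 1 library in each group: Eftud2 cKO cerebellum at postnatal day 14 (P14 cKO), WT cerebellum at day 14 (P14 WT), Eftud2 cKO cerebellum at day 10 (P10 cKO) and WT cerebellum at day 10 (P10 WT). Eftud2 encodes a GTPase of the spliceosome, and the series title places its loss in Purkinje cells. Neither the Cre line, the deleted part of the gene, the sex nor the number of animals is given in the labels, which also state that the meninges had been taken off. With 1 library in each group no difference between genotypes has a replicate check, and no p-value is given. The libraries held 91091692 to 158017834 UMIs, and the members 100438 to 446095 of these. Intervals are at 95% and hold counting error only.

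Neutrophils are short-lived granulocytes that store antimicrobial proteins in granules made in a fixed order while the cell matures. Classical monocytes carry Ly6C and the chemokine receptor CCR2, and in mice they give rise to nonclassical monocytes, which lose CCR2 and patrol vessel walls. In the healthy brain both are rare outside the vessels and the brain's borders, where microglia and border macrophages are the resident myeloid cells.

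Targeted Eftud2 RNA was too sparse in the members to check the labels. It had 6 UMIs in P14 cKO, 13 in P14 WT, 1 in P10 cKO and 14 in P10 WT. In microglia (cells with UMIs of Tmem119 and P2ry12 and none of Mrc1) Eftud2 stood at 34.3 CPM (UMIs of a gene over all UMIs of those cells, scaled to parts per 1e6) in P14 cKO, against 32.3 CPM in P14 WT, and at 26.7 CPM in P10 cKO, against 35.5 CPM in P10 WT. Members and microglia are not the cell type named in the series title.

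The libraries differed in ways that run with the groups. The P10 WT matrix was written by Cell Ranger 5.0.0, P10 cKO by 7.0.1 and both P14 matrices by 7.1.0, per the file headers, so at P10 genotype and program version cannot be told apart. Xist, the RNA that silences an X chromosome, was at 0 CPM in the P10 cKO members and between 577 and 641 CPM in the members of the other libraries, so sex also runs with genotype at P10. Haemoglobin RNA (5 erythrocyte markers) summed to 79.7 CPM in P14 cKO members, 25.4 CPM in P14 WT and 32.7 CPM in P10 cKO, against 6180 CPM in P10 WT. In P10 WT it lay mainly in 2 members, where it took 26.9% of 6253 UMIs and 13.3% of 6521 UMIs. Free S100a8 RNA differed too: granule neurons, which should lack it, held 4.32 CPM in P14 cKO and 0.63 CPM in P14 WT, and 0.31 CPM in P10 cKO and 14.9 CPM in P10 WT. A UMI of S100a8 was found in 6.03% of granule neurons in P14 cKO and 0.591% in P14 WT, and in 0.412% in P10 cKO and 9.0% in P10 WT. A single such UMI counts as a positive gene of the rule. How far free RNA brought cells into the set was not tested. Of the members, 1 in P14 WT shared its barcode with a cell of another library, and no barcode was shared between members.

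By marker genes 108 of the 119 cells were neutrophil-like or monocyte-like, and 18 of these 108 were mixed cells as defined below. The naming used only 5 lists, all of myeloid or dendritic cells, so this count does not test the name of the set. Neutrophil markers were sparse in several mixed neutrophil-like cells: 1379 CPM in a P14 cKO cell of 44944 UMIs, 1160 and 1860 CPM in P14 WT, and 2578 and 2607 CPM in P10 WT. The other mixed cells of this class had 87875 CPM in P14 cKO, 11344 CPM in P14 WT and 14792 CPM in P10 WT. Values over all 51 neutrophil-like cells keep these cells. The lowest value in neutrophil-like cells that were not mixed was 10887 CPM, in P10 WT. A cell took the class whose marker list had the largest share detected, with at least 3 markers. The 51 neutrophil-like cells were 3 in P14 cKO and 16 in P14 WT, and 3 in P10 cKO and 29 in P10 WT. The 45 classical monocyte-like cells were 1 in P14 cKO and 16 in P14 WT, and 5 in P10 cKO and 23 in P10 WT. The 12 nonclassical monocyte-like cells were 1 in P14 cKO and 1 in P14 WT, and 6 in P10 cKO and 4 in P10 WT. Nonclassical monocytes without 2 of the 5 positive genes, which include Ly6c2 and Ccr2, could not enter the set. Nonclassical marker RNA stood between 1242 and 5536 CPM in the 6 P10 cKO cells so named, and 1 classical monocyte-like P10 cKO cell had 5040 CPM. The 2 monocyte names are therefore not sharply divided. A further 5 cells were dendritic cell-like, 5 were plasmacytoid dendritic cell-like and 1 was left unnamed. These class names and the definition of mixed cells below were set after the cells had been seen.

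**Figure D1:**
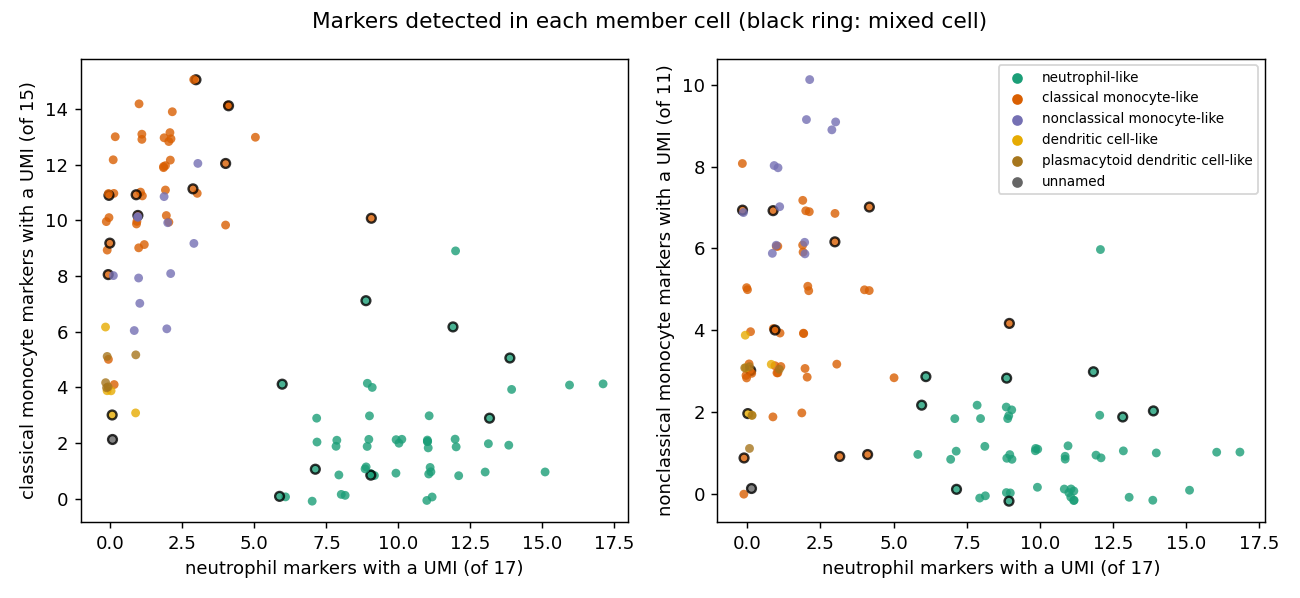
Each point is 1 of the 119 cells, placed by how many of 17 neutrophil markers had a UMI in it (x axis) and by how many of 15 classical (left) or 11 nonclassical (right) monocyte markers did (y axes), with a small random shift for display. Colours are the classes and black rings the 20 mixed cells. Neutrophil-like cells form a group apart from the monocyte-like ones, whereas classical and nonclassical cells run into each other. Counts of these markers named the classes, so the grouping describes the naming.

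Some members held RNA of brain cells as well. In 20 cells many markers of granule neurons, oligodendrocytes, astroglia, endothelium or fibroblasts were detected (for example at least 4 of 7 granule lineage markers), and these are called mixed cells. They numbered 2 in P14 cKO and 6 in P14 WT, and 1 in P10 cKO and 11 in P10 WT. Their median was 19639 UMIs, against 5634 UMIs in the other 99 cells. Over all members, the genes with the largest P14 cKO over P14 WT ratios were led by Sox6, Sntg1 and Slc35f1 and the lowest by Mag, Nkain2 and Mog, of which Mag and Mog encode myelin proteins. Over all members, 11 of 13 interferon response genes were past a log2 ratio of 1 at P10, where 27.1% of all genes were, and 0 of 12 at P14, where 10.5% were. Gene levels are given without mixed cells wherever classes are compared, and values over all members stand in the closing section.

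Members made up a small share of every library. They were 6 of 6308 cells in P14 cKO (0.0951%, exact binomial interval 0.0349 to 0.207) and 36 of 15395 cells in P14 WT (0.234%, 0.164 to 0.324). At P10 they were 14 of 6593 cells in P10 cKO (0.212%, 0.116 to 0.356) and 63 of 14280 cells in P10 WT (0.441%, 0.339 to 0.564). The log2 ratio of these shares, cKO over WT, was -1.20 at P14 (-2.84 to -0.04) and -1.02 at P10 (-2.01 to -0.20). The share of cells in a suspension depends on how the tissue was taken, bled and dissociated, which was not tested.

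The lower share in cKO depended on the rule and on what it was divided by. Before the excluded genes were applied, 40 of 6308 cells qualified in P14 cKO and 50 of 15395 in P14 WT, so the P14 share was then higher in cKO. At P10, 19 of 6593 cells qualified in P10 cKO and 217 of 14280 in P10 WT. Excluded genes removed 34 of these cells in P14 cKO, 14 in P14 WT, 5 in P10 cKO and 154 in P10 WT. When a single UMI of an excluded gene was allowed, 15 P14 cKO cells and 46 P14 WT cells qualified and the log2 ratio at P14 was -0.30 (-1.28 to 0.54). Per cell with a Ptprc UMI, members were 0.909% in P14 cKO and 3.73% in P14 WT, but 3.66% in P10 cKO and 2.51% in P10 WT, so the log2 ratio at P10 turned to 0.58 (-0.41 to 1.40). The P10 WT library had 2509 cells with Ptprc and, by a separate count, 1572 of the 1947 cells of the series with UMIs of the border macrophage genes Mrc1 and Pf4.

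**Figure D2:**
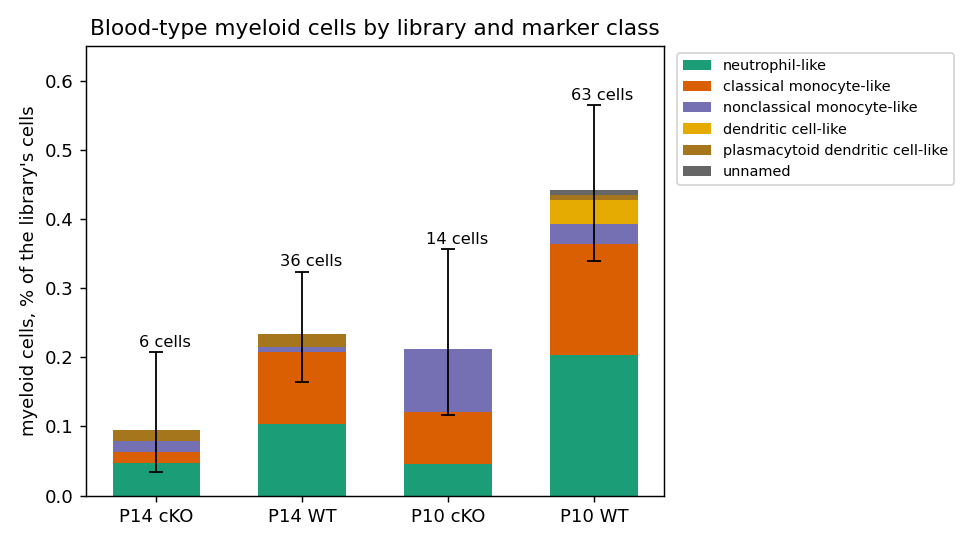
Bars give the share of each library's cells (y axis, percent) that met the rule, stacked by marker class, with the exact 95% binomial interval of the total and the number of cells. The P14 cKO bar rests on 6 cells, and nonclassical monocyte-like cells take the largest part of the P10 cKO bar.

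Cells just outside the rule resembled members in part. By Ptprc alone 253 cells stayed out, of which 39 were neutrophil-like and 47 monocyte-like, and 191 of these 253 were in P10 WT. With Ptprc but only 1 of the 5 positive genes there were 125 cells, 85 of them monocyte-like. A single excluded UMI kept out 66 cells, of which 44 were neutrophil-like. Just inside the rule, 54 members had exactly 2 positive genes and 11 had exactly 1 Ptprc UMI.

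S100a9 and S100a8 led the RNA of the neutrophil-like cells, which had a median of 2635 UMIs. Over all 51 of them S100a9 held 61909 CPM and S100a8 42798 CPM. The proteins form calprotectin, which binds calcium and withholds zinc and manganese from microbes. Both genes chose the members, so these levels describe the choice. Also among their 20 most abundant genes were Retnlg, a resistin-like secreted protein, Lcn2, which binds bacterial iron carriers, and Stfa1, Stfa2 and Stfa2l1, cysteine protease inhibitors whose near-identical copies may share reads.

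The stretches upstream of both calprotectin genes are printed because these genes gave the class its most abundant RNA. They are the 250 bases before the RefSeq start of each gene (GRCm38.p6), 5′ to 3′ on the gene's own strand, at chr3:90668821-90669070 (plus strand) for S100a8 and chr3:90695722-90695971 (minus strand) for S100a9. Capitals mark letters that match TTGCNNAA (the C/EBP type), GAGGAAG (the PU.1 type) or TATAAA (the TATA type) on either strand.
S100a8: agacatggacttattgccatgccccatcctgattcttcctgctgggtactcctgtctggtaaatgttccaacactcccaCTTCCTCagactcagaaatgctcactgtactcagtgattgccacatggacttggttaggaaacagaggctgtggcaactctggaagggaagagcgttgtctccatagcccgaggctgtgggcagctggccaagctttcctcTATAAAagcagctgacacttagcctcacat
S100a9: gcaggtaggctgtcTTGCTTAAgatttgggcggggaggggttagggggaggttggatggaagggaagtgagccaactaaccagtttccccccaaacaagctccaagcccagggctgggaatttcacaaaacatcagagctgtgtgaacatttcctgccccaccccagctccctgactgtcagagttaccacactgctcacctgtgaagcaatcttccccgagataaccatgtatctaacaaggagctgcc
In S100a8 a PU.1-type match began 171 bases and a TATA-type match 30 bases before the start, and in S100a9 a C/EBP-type match began 236 bases before it. Of 32851 promoters of this length, 9.56% hold the C/EBP-type letters, 10.6% the PU.1-type and 12.4% the TATA-type letters. None of the matches overlapped another, and a match is a description of letters, not of binding.

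Granule proteins that mark immature neutrophils sat in few cells. Camp (cathelicidin), Ngp (neutrophilic granule protein) and Ltf (lactoferrin) belong to secondary granules, which form before the cell leaves the marrow. Together they took at least 2% of the UMIs in 6 of the 51 neutrophil-like cells, 1 of them in P14 cKO and 2 in P14 WT, and 0 in P10 cKO and 3 in P10 WT. No UMI of the 3 genes was found in 36 cells. The P14 cKO cell of this kind was a mixed cell of 28108 UMIs, with 728 of Camp, 899 of Ngp and 193 of Ltf. The P10 WT cell with 14666 UMIs had 820 of Camp and 665 of Ngp and also 12 of Mki67, a marker of dividing cells, and 9 of Top2a, a topoisomerase of dividing cells.

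Csf3r and Cxcr2 ran loosely against the granule genes. Csf3r and Cxcr2 encode the receptor for G-CSF and a chemokine receptor of mature neutrophils. Over the 51 cells the summed share of Camp, Ngp and Ltf had a Spearman rho of -0.43 with summed Csf3r and Cxcr2. This value is a description: 36 of the cells were tied at 0 for the granule genes and 8 were mixed cells. All these genes are on the list that named the class, and cells of a library are not replicates. In the 6 cells rich in granule RNA, Csf3r and Cxcr2 together stood between 35.6 and 992 CPM.

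**Figure D3:**
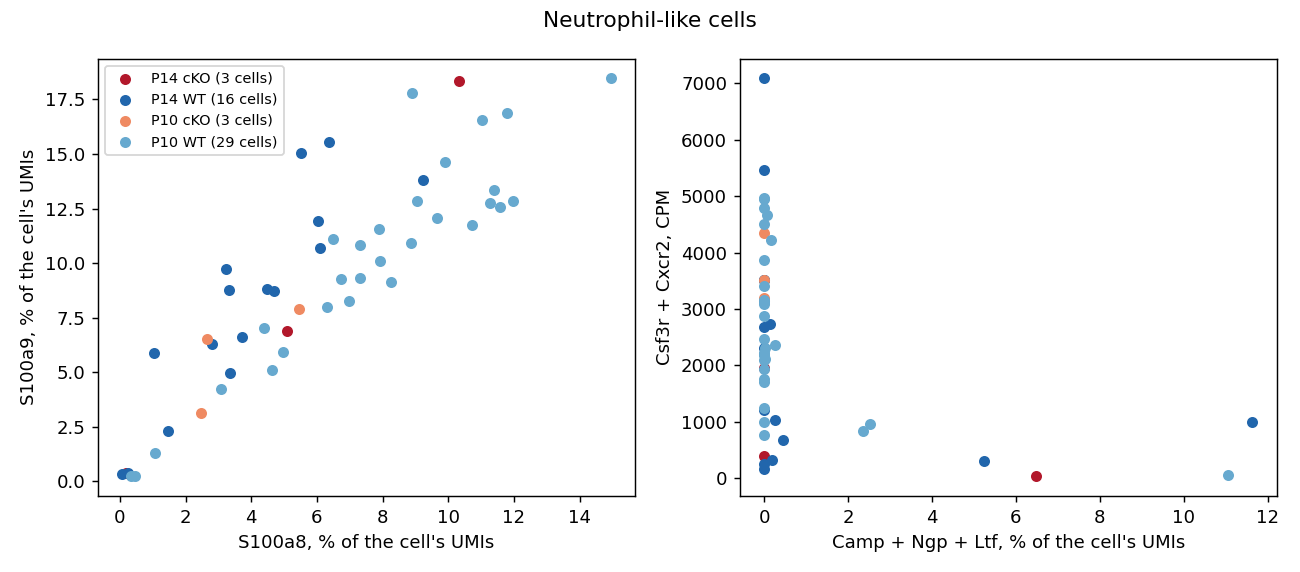
Points are the 51 neutrophil-like cells, coloured by library. Left, S100a8 against S100a9 as percent of each cell's UMIs, both genes of the rule and shown as a description; right, the summed percent of Camp, Ngp and Ltf against summed Csf3r and Cxcr2 (CPM), where 6 cells lie at 2% or more and the rest near 0.

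Levels in neutrophil-like cells without mixed cells rested on 1 cell in P14 cKO and 13 in P14 WT, and on 3 cells in P10 cKO and 26 in P10 WT. At P14 no ratio is read from the single cell, in which S100a8 made up 103381 CPM and S100a9 183355 CPM. At P10 Camp had 0 UMIs in P10 cKO, against 870 in P10 WT (at least 29.9-fold lower, against a floor of 3 counts over the library's cells). Ngp had 0 UMIs in P10 cKO and 757 in P10 WT (at least 26-fold lower). These P10 WT counts came largely from the single cell with Mki67 described above, which held 94.3% of the Camp UMIs and 87.8% of the Ngp UMIs. Lcn2 was at 0 UMIs in P10 cKO and 321 UMIs in P10 WT (at least 11-fold lower), with UMIs in 0 of 3 cells and 15 of 26 cells.

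Summed over cells, interferon-induced and immediate early RNA was higher in the 3 P10 cKO neutrophil-like cells, but the ranges over cells overlapped. The interferon list had a lowest 8696, a median 17600 and a highest 19196 CPM in the P10 cKO cells, against 445, 1272 and 19164 CPM in the 26 P10 WT cells. Immediate early genes had a lowest 7040, a median 18739 and a highest 29469 CPM in the P10 cKO cells, against 0, 9783 and 38700 CPM in the P10 WT cells, so 1 of the 3 lay below the P10 WT median. Of 28 interferon response genes 3 had at least 20 UMIs over both P10 libraries, and all 3 had a log2 ratio, cKO over WT, of at least 1. Among all genes with that many UMIs 22.3% were as much higher and 20.6% as much lower (a log2 ratio of at most -1). Ifi27l2a, an interferon-induced mitochondrial protein, had 966, 8640 and 9141 CPM in the 3 P10 cKO cells, against a median of 0 and a highest value of 7840 CPM in the 26 P10 WT cells. Its log2 ratio was 4.48 (3.74 to 5.31). Of 12 immediate early genes 8 had enough UMIs and all 8 had ratios above 0, with a median of 1.02, against 0.01 over all genes. Fos, a stress- and stimulus-induced transcription factor, had a log2 ratio of 2.06 (1.33 to 2.73). Granule genes of the secondary and tertiary list went the other way, with 7 of 13 lower past the fold and a median of -2.08, or -0.20 with genes at 0 set to the floor. A single P10 WT cell held 73.1% of the UMIs of that list in its library, and the medians over cells were 7040 CPM in P10 cKO and 10402 CPM in P10 WT.

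Monocyte-like cells allowed the fullest comparison at P10. Without mixed cells there were 10 in P10 cKO (4 classical, 6 nonclassical) and 21 in P10 WT (17 classical, 4 nonclassical), with medians of 7710 UMIs in P10 cKO and 7671 UMIs in P10 WT. In the P10 cKO cells RNA of the nonclassical list, of MHC class I and of interferon response genes was higher, and RNA of Fn1, Vcan and the cell cycle was lower. The class lists named the cells, so their sums in each class are a description, whereas the MHC class I and cell cycle lists had no part in the naming. Among the P10 WT cells 1 nonclassical cell held 97.1% of the haemoglobin RNA, which summed to 35.7 CPM in P10 cKO and 10568 CPM in P10 WT.

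Nonclassical monocyte genes were mostly higher. Of 11 genes on that list 9 had at least 20 UMIs at P10. Of these 8 were above 0 and 6 were past the fold, a share to be read beside the 24.8% of 2292 genes that were as much higher (14.6% were as much lower). The median log2 ratio was 1.34, against 0.10 over all genes. This list named 6 of the 10 P10 cKO cells and 4 of the 21 P10 WT cells nonclassical. Its counts and ratios therefore restate that naming in part and are no separate result. Treml4, a receptor of patrolling monocytes, stood at 345 CPM in P10 cKO and 24.4 CPM in P10 WT, a log2 ratio of 3.68 (2.31 to 5.79). It had UMIs in 9 of 10 P10 cKO cells and 3 of 21 P10 WT cells, and in 0.0444% of granule neurons, whose median depth was 11284 UMIs in P10 cKO and 10825 UMIs in P10 WT. Ace, which encodes angiotensin-converting enzyme, stood at 250 CPM in P10 cKO and 67.2 CPM in P10 WT (log2 ratio 1.87, 0.78 to 3.10), in 10 of 10 cells and 6 of 21 cells. Granule neurons had an Ace UMI in 2.36% of cells.

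Further genes of the list lay the same way. Eno3, an enolase, had a log2 ratio of 2.30 (1.24 to 3.56). Itgal, the alpha chain of the integrin LFA-1, had 1.75 (1.13 to 2.41). Pou2f2, a transcription factor of the POU family, stood at 989 CPM in P10 cKO and 391 CPM in P10 WT (1.34, 0.85 to 1.83). Nr4a1, a nuclear receptor on which mouse nonclassical monocytes depend, had -0.12 (-0.73 to 0.44), an interval that takes in 0. Outside the list, Fcgr4, an activating Fc receptor abundant on nonclassical monocytes, stood at 524 CPM in P10 cKO and 97.8 CPM in P10 WT (2.39, 1.57 to 3.35).

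Classical genes lay on both sides of 0. Csf1r, the receptor for macrophage colony-stimulating factor, is on that list and stood at 917 CPM in P10 cKO and 367 CPM in P10 WT (1.32, 0.82 to 1.83). Of 15 on the classical list 14 had enough UMIs, with 4 higher and 5 lower past the fold and a median of -0.33. This list named cells too, so the values of its genes restate the naming in part. Over all genes 24.8% were as much higher, a share close to that of the list, and 14.6% as much lower. Fn1, fibronectin, had 2 UMIs in P10 cKO and 227 in P10 WT, or 23.8 and 1387 CPM, a log2 ratio of -5.54 (-8.92 to -3.99). It was found in 1 of 10 P10 cKO cells and 16 of 21 P10 WT cells, and in 12.3% of granule neurons. F13a1, the A chain of coagulation factor XIII, had 0 UMIs in P10 cKO and 86 in P10 WT (at least 14.7-fold lower). Vcan, the proteoglycan versican, stood at 23.8 CPM in P10 cKO and 452 CPM in P10 WT (log2 ratio -3.93, -7.32 to -2.34). Chil3, a chitinase-like protein, had 0 UMIs in P10 cKO and 22 in P10 WT (at least 3.76-fold lower). Ccr2, which the rule used, stood at 167 CPM in P10 cKO and 1088 CPM in P10 WT, and Ly6c2, also used, at 1060 CPM in P10 cKO and 746 CPM in P10 WT.

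**Figure D4:**
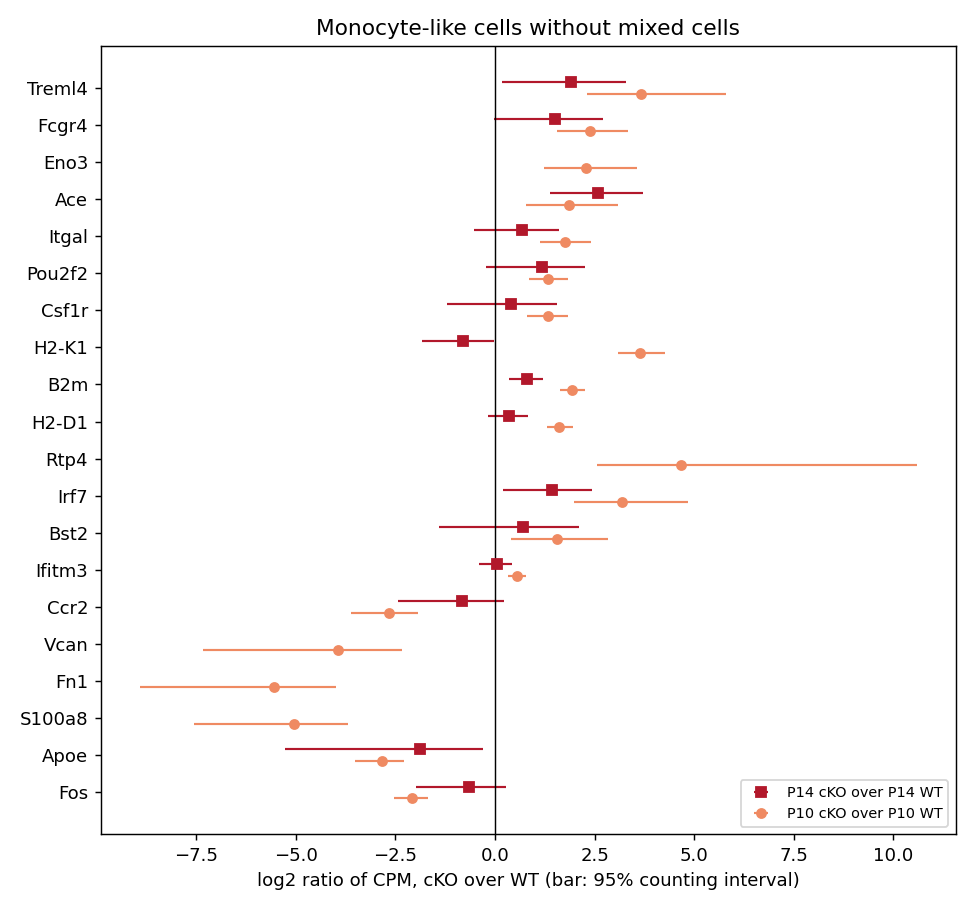
Log2 ratios of CPM, cKO over WT (x axis), for genes named in the text or on the same lists, in monocyte-like cells without mixed cells; squares are P14, circles P10, bars 95% counting intervals, and genes under 20 UMIs or at 0 in a library of the pair have no symbol. At P10 Treml4 to Ifitm3 lie right of 0 and Ccr2 to Fos left of it. Ccr2 and S100a8 are genes of the rule, so their ratios describe the choice.

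MHC class I RNA separated the monocyte-like cells of the P10 libraries cell by cell. MHC class I displays peptides on every nucleated cell to CD8 T cells. Summed over the list it ran from a lowest 8813 through a median 9875 to a highest 14938 CPM in the 10 P10 cKO cells, and from a lowest 1279 through a median 2076 to a highest 5301 CPM in the 21 P10 WT cells. The ranges over cells did not overlap, but cells of a library are not replicates. In the 14 P14 WT cells, of another age, the median was 8750 CPM, nearer to P10 cKO than to P10 WT. All 10 genes of the list with at least 20 UMIs were higher, with a median log2 ratio of 1.84. Of these 9 were past the fold, where 24.8% of all genes were as much higher. The difference stood within each class: 10934 CPM in P10 cKO and 2340 CPM in P10 WT in classical cells, and 9833 CPM in P10 cKO and 2718 CPM in P10 WT in nonclassical cells. Neutrophil-like cells without mixed cells were not separated. They had 5027 to 5797 CPM (median 5440) in the 3 P10 cKO cells and 477 to 6533 CPM (median 2616) in the 26 P10 WT cells.

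H2-K1, a class I heavy chain, stood at 2228 CPM in P10 cKO and 177 CPM in P10 WT (log2 ratio 3.63, 3.08 to 4.27). It had UMIs in 10 of 10 cells and 14 of 21 cells, and in 6.32% of granule neurons. H2-D1, another heavy chain, stood at 2442 CPM in P10 cKO and 795 CPM in P10 WT, a log2 ratio of 1.62. Heavy-chain genes are alike in sequence and differ between mouse strains, so reads may be split among them. B2m, the light chain they share, has no such copies and stood at 2895 CPM in P10 cKO and 752 CPM in P10 WT (1.94, 1.63 to 2.27).

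Interferon response genes were higher as well. Of 28 on the list 12 had enough UMIs and 11 were above 0, with a median log2 ratio of 1.89. Past the fold were 9, where 24.8% of all genes were as much higher. The list summed to a lowest 6568, a median 9352 and a highest 10138 CPM in the 10 P10 cKO cells, and to 1279, 3733 and 8355 CPM in the 21 P10 WT cells, so these ranges overlapped. The median in the 14 P14 WT cells was 9496 CPM, so here too P10 WT was the lower WT library. Why the WT libraries differ was not tested. Irf7, which amplifies type I interferon, stood at 357 CPM in P10 cKO and 36.7 CPM in P10 WT, a log2 ratio of 3.19. Rtp4, an interferon-induced protein, had 19 UMIs in P10 cKO and 1 in P10 WT, a log2 ratio of 4.66 (2.56 to 10.59).

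Both lists were also lower in P10 WT than in P10 cKO in microglia and border macrophages, by smaller ratios for class I. MHC class I RNA in microglia summed to 2306 CPM in P10 cKO and 1854 CPM in P10 WT. In border macrophages it was 2432 CPM in P10 cKO and 1647 CPM in P10 WT. The interferon list in microglia summed to 897 CPM in P10 cKO and 397 CPM in P10 WT, and in border macrophages to 4252 CPM in P10 cKO and 1370 CPM in P10 WT. Whether the difference in monocyte-like cells exceeds that in the resident cells was not tested.

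Cell cycle RNA summed over cells was lower in P10 cKO, but the ranges over cells overlapped. The list had a lowest 372, a median 792 and a highest 1494 CPM in the 10 P10 cKO cells. In the 21 P10 WT cells these were 320, 1953 and 11430 CPM. The median in the 14 P14 WT cells was 1040 CPM, nearer to P10 cKO than to P10 WT. All 8 genes of that list with enough UMIs were lower past the fold, where 14.6% of all genes were, with a median log2 ratio of -3.21, or -1.91 with the 3 genes at 0 set to the floor. Mki67 had 0 UMIs in P10 cKO and 40 in P10 WT (at least 6.84-fold lower). The 40 came from 5 of 21 P10 WT cells, and a cell without a UMI may still express the gene. Stmn1, a tubulin-binding protein, had 2 UMIs in P10 cKO and 44 in P10 WT (-3.19, -6.59 to -1.56). No nonclassical cell of any library had 3 or more Mki67 UMIs, and 6 of the 10 P10 cKO cells were nonclassical, against 4 of the 21 P10 WT cells. The part of this makeup in the lower cell cycle RNA was not tested. In granule neurons, whose precursors divide at this age, the list was also lower, at 7184 CPM in P10 cKO and 16910 CPM in P10 WT. Whether free RNA of brain cells entered the monocyte-like values of this list was not tested.

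Immediate early genes were lower too, in contrast to the neutrophil-like cells. All 11 with enough UMIs were below 0 and 7 were past the fold, where 14.6% of all genes were as much lower, with a median of -1.20. Fos stood at 608 CPM in P10 cKO and 2592 CPM in P10 WT (-2.08, -2.54 to -1.67). Apoe, a lipid carrier that microglia release in quantity, stood at 298 CPM in P10 cKO and 2164 CPM in P10 WT (-2.83, -3.51 to -2.28). A single cell held 39.0% of the P10 WT Apoe UMIs. Of the genes with the highest P10 ratios, Lrmda (93 UMIs in P10 cKO and 0 in P10 WT) and Lpp are long genes, for which counting of intronic reads could differ between program versions.

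**Figure D5:**
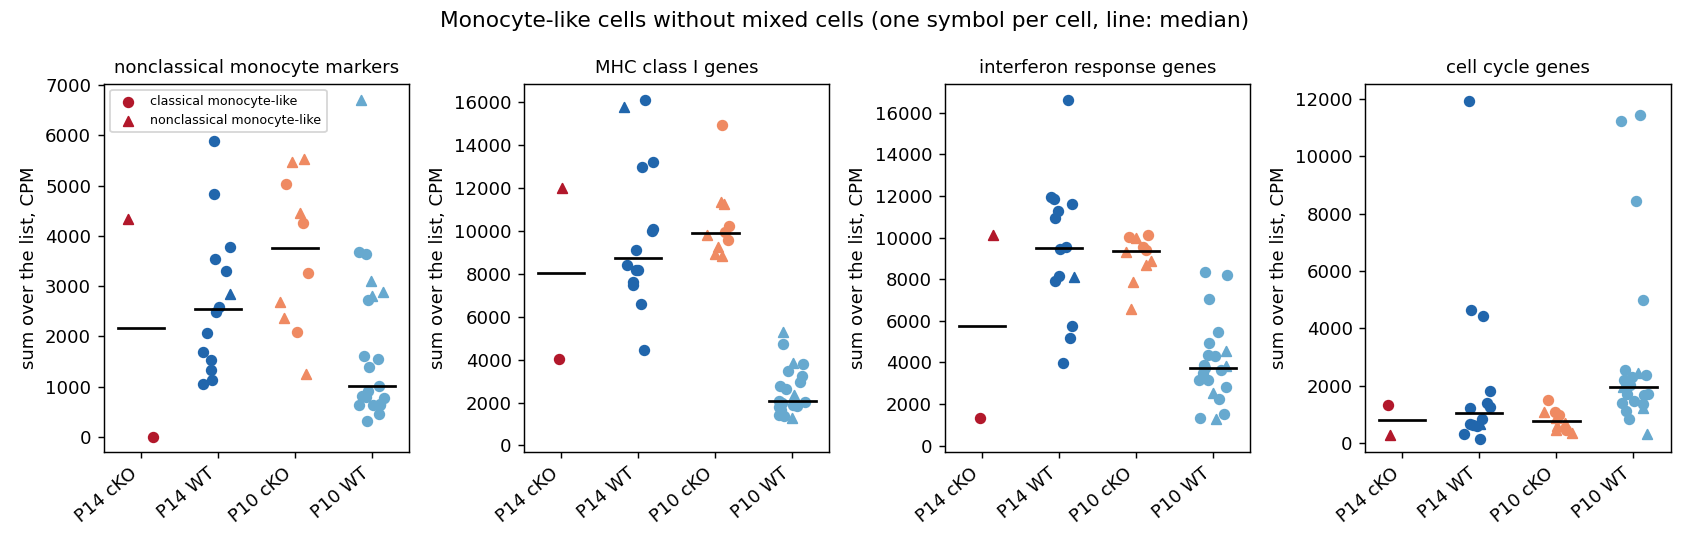
Each symbol is 1 monocyte-like cell without mixed cells (circles classical, triangles nonclassical), placed by library (x axis) and by the summed level of a gene list in that cell (y axis, CPM); lines are medians. For MHC class I every P10 cKO cell lies above every P10 WT cell, while the P14 WT cells spread between 4431 and 16114 CPM.

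At P14 the monocyte-like cells allowed little comparison, since P14 cKO had 2 of them without mixed cells, of 744 and 11079 UMIs, against 14 in P14 WT. Nearly all P14 cKO values are those of the larger cell, which was nonclassical. Of the nonclassical list 5 genes had enough UMIs, with 3 higher and 1 lower past the fold, where 14.2% of 1137 genes were as much higher and 16.4% as much lower. Ace stood at 1015 CPM in P14 cKO and 171 CPM in P14 WT (2.59, 1.39 to 3.71) and Treml4 at 507 CPM in P14 cKO and 142 CPM in P14 WT (1.90, 0.18 to 3.28). MHC class I RNA summed to 11503 CPM in P14 cKO and 9732 CPM in P14 WT, with 4 of 9 genes above 0 and a median of -0.12. The interferon list summed to 9558 CPM in P14 cKO and 9875 CPM in P14 WT, with a median of -0.05.

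Fn1 had 0 UMIs in P14 cKO and 94 in P14 WT (at least 3.51-fold lower), in 0 of 2 cells and 8 of 14 cells. H2-Aa, an MHC class II chain of antigen-presenting cells, had 0 UMIs in P14 cKO and 37 in P14 WT (at least 1.38-fold lower). A single P14 WT cell held 86.5% of those H2-Aa UMIs.

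The 5 dendritic cell-like members were all in P10 WT and had 7713 to 16584 UMIs. Xcr1, a chemokine receptor of cross-presenting dendritic cells, had UMIs in 4 of the 5, at 522 CPM over the class. H2-Aa stood at 8204 CPM and Cd74, its chaperone, at 16538 CPM. All 5 entered the rule with Ccr2, which had UMIs in each. Of the 5, 1 was a mixed cell.

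Plasmacytoid dendritic cell-like members were 1 in P14 cKO and 3 in P14 WT, and 0 in P10 cKO and 1 in P10 WT. These cells are known as strong producers of type I interferon. Siglech, a lectin of these cells, had 48 UMIs in the P14 cKO cell and 17, 24 and 41 UMIs in the P14 WT cells. The P10 WT cell had 26. No other member had a Siglech UMI. Ly6c2, at 2063 CPM in this class, is what brought these cells under the rule together with Ccr2.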

How the data were processed

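RNA of single cerebellar cells was read in 4 libraries. The values deposited by the authors are raw UMI counts for each gene in each barcode. Per the submitters' processing notes, mm10 was the genome build, and both Seurat 4.1.3 and Cell Ranger 3.0.2 are listed there, whereas the file headers record later Cell Ranger versions. Whether intronic reads were counted is not given in the sources used here.

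Members and gene lists were chosen with earlier results of these data known. Doublet scores came from Scrublet within Scanpy 1.11.5 and removed no member. UMIs were summed over cells of a class and library and divided by their total (CPM). Log2 ratios had 0.5 UMI added and were given for genes with at least 20 UMIs over both libraries. Exact Poisson and conditional binomial intervals were used at 95% (SciPy 1.17.1). A count of 0 was given a floor of 3 counts. Genes named are the rule genes, Eftud2, list members, the 20 most abundant genes of a class and the 10 highest and 10 lowest ratios. The ratio was tested on simulated data. Promoter sequences came from RefSeq (GRCm38.p6). Results on some genes are not reported here.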

Additional observations from a re-analysis of the deposited data

Results flagged for a closer look

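Interferon response genes had ratios of opposite sign at the 2 ages over all members. The median log2 ratio, cKO over WT, was -0.67 at P14 over 12 genes and 2.42 at P10 over 13 genes. The medians of the genes' interval bounds were -2.14 and 0.65 at P14, on both sides of 0, and 1.61 and 3.64 at P10. Among members with Ly6c2 or Ccr2 and no Retnlg the P14 median was 0.34, so the opposite sign rests on the cells included. At P10 11 of the 13 were past the fold, where 27.1% of all genes were as much higher, and at P14 0 of 12 were, where 10.5% were. The difference between the ages was not tested, since each age has 1 library per genotype.

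MHC class I genes behaved alike over all members, with a median log2 ratio of -0.91 at P14 over 11 genes and 1.66 at P10 over 12 genes. This difference was not tested either. In P14 cKO 2 mixed cells held most of the UMIs of the 6 members, and without mixed cells the P14 medians were -0.07 for class I and -0.15 for the interferon list.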

How the results depend on the processing

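Shares of members kept within their intervals in 40 of 54 alternatives and list medians over all members in 58 of 60. Allowing 1 excluded UMI gave shares of 0.238% in P14 cKO and 0.756% in P10 WT. Asking for 3 of 5 positive genes gave 0.143% in P14 WT, 0.0303% in P10 cKO and 0.266% in P10 WT, and a log2 ratio of -2.83 at P10. A minimum of 1000 genes gave 0.310% in P10 WT and a log2 ratio of -0.47 (-1.50 to 0.41) at P10, whose interval takes in 0, as did that at P14 (-3.01 to 0.07). Thinning each cell to 2000 UMIs gave 0.0789% in P10 cKO and a log2 ratio of -2.29 at P10, and -0.77 (-2.43 to 0.44) at P14. Without mixed cells the P10 ratio was -0.84 (-1.89 to 0.01), and with 3 of 5 positive genes the P14 ratio was -1.40 (-3.97 to 0.15). Per Ptprc cell the shares were 0.909% in P14 cKO, 3.73% in P14 WT, 3.66% in P10 cKO and 2.51% in P10 WT, with a log2 ratio of 0.58 at P10. For MHC class I at P14 the median was 0.11 over 11 genes among members with Ly6c2 or Ccr2 and no Retnlg. Among those with neither Ly6c2 nor Ccr2 it was -2.60, over 3 genes only. The interferon median at P14 likewise turned to 0.34 among the first, over 9 genes. Among the second only 1 gene had enough UMIs, and its ratio was -1.97, which does not describe the list. The alternatives without mixed cells and in monocyte-like members were chosen after seeing the data. The cause of these shifts was not tested.

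A fit of genotype over both ages had been planned for libraries with at least 10 members each and was not run, because P14 cKO had 6, and neither were its alternatives. No paired analysis was possible because the labels give no replicate numbers and each group is 1 library. Depth limits all values: P14 cKO members held 100438 UMIs, of which 44.7% lay in 1 cell.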

Other observations

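Adhesion genes were summed in the monocyte-like cells without mixed cells. The list summed to 5397 CPM in P10 cKO and 2433 CPM in P10 WT, with a median log2 ratio of 0.86 over 8 genes. Itgal is on this list and also on the nonclassical list that named cells. NADPH oxidase genes, which make the oxidative burst, summed to 6695 CPM in P10 cKO and 4877 CPM in P10 WT, with 0 of 7 genes past the fold. Lipid and phagocytic genes of macrophages summed to 7017 CPM in P10 cKO and 9419 CPM in P10 WT, with 1 of 10 genes higher and 5 of 10 lower past the fold, where 24.8% of all genes were as much higher and 14.6% as much lower. Genes of MHC class II summed to 2514 CPM in P10 cKO and 3918 CPM in P10 WT, and 1 cell held 50% of the P10 cKO UMIs and 1 cell 41% of the P10 WT UMIs.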
